A study of Mus musculus with 6 samples.

Results

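Single nuclei from mouse brain kept as FFPE blocks (fixed in formalin, embedded in paraffin) were set beside single nuclei from frozen mouse brain, on 4 plates of 1 table. The nuclei were chosen by the library type in the authors' annotation of that table. FFPE nuclei came from plates MB14 (69 nuclei) and MB16 (74 nuclei), 143 in all. Frozen nuclei came from plate1 (69 nuclei) and plate2 (68 nuclei), 137 in all. Together they make up 280 of the 7409 nuclei in the plate and droplet tables of the series. The labels describe C57BL/6J mice aged 8 to 12 weeks and call the tissue cortex, while the extraction protocol speaks of brain scrolls of 50 µm that were freed of paraffin, rehydrated and lysed before single nuclei were sorted. The annotation marks the FFPE nuclei with the brain letter L and the frozen nuclei with R, so that letter and the fixation cannot be told apart. All 4 plates carry the same batch code and were made with SMART-Seq2. The sources used here name neither the paraffin solvent of MB14 and MB16 nor the number of animals.

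Formalin links RNA to protein and breaks it, and paraffin embedding adds heat and solvents, so that RNA of archived blocks is usually short and chemically modified. A nucleus holds unspliced transcripts and nuclear long noncoding RNAs beside a smaller share of mature messenger RNA. SMART-Seq2 primes on poly(A) tails and reads along the whole transcript, and it carries no molecular identifiers, so 1 molecule can give many reads. In the cortex, excitatory neurons, inhibitory neurons and glia would make up most nuclei. Granule neurons are the small and very numerous excitatory neurons of the cerebellum.

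The plates of a group did not hold independent nuclei. Each nucleus was compared with all others of its group by the correlation of log2(CPM + 1) values, where CPM is a gene's count scaled to a common total for every nucleus, after each gene's group mean had been subtracted. Most pairs had a correlation near 0 (median -0.02 in both groups). In FFPE, 62 of 10153 pairs reached 0.6 or more, 50 of them between the plates, and the highest was 0.959. In frozen nuclei, 110 of 9316 pairs did so, 75 of them between the plates, and the highest was 0.981. A nucleus of the other plate was matched in this way by 90 of the 143 FFPE nuclei and by 106 of the 137 frozen nuclei. Between FFPE and frozen nuclei 2 of 19591 pairs passed the same value. Linked nuclei collapsed into 90 FFPE sets and 69 frozen sets, the largest with 4 and 8 nuclei. Most matches followed the index reads: of 41 mutual best pairs in each group, 41 FFPE and 34 frozen pairs kept 1 fixed map between the i7 indexes of the plates. For the i5 indexes 36 FFPE and 37 frozen pairs did so. Each map was drawn from the same pairs, and no value for unrelated pairs was computed. All 280 index pairs differed, and no index pair occurred on more than 1 plate. Agreement between the plates of a group is therefore no replicate check here, and the p-values of 2 plates against 2 (at least 0.333 in the exact 2-sided permutation test) are not used. The main values below use all nuclei, and several are also given for 1 nucleus per linked set, the deepest of each (90 FFPE and 69 frozen nuclei, of which 85 and 60 had 10000 counts or more).

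**Figure D1:**
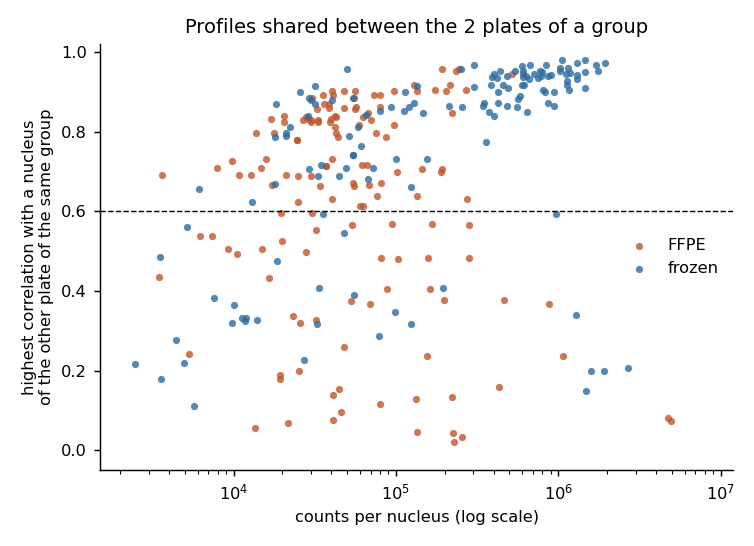
For each nucleus, its counts (x axis, log scale) and its highest correlation with any nucleus of the other plate of the same group (y axis), FFPE in orange and frozen in blue. The dashed line marks 0.6: 90 of 143 FFPE and 106 of 137 frozen nuclei lie on or above it, many of them over 0.8.

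FFPE nuclei held fewer genes than frozen nuclei when the same number of reads was drawn from each. Reads were thinned to 10000 per nucleus, which left out 5 and 3 FFPE nuclei and 5 and 5 frozen nuclei with fewer. The mean number of genes with a read was then 1133 on MB14 and 1188 on MB16, against 2034 on plate1 and 2095 on plate2. The group means of 1160.5 ± 38.9 and 2064.7 ± 43.2 (SD, n = 2 plates) differed by -904.2 genes, a ratio of 0.562. The difference was -900.7 with 1 nucleus per linked set. It was -602.1 at 5000 counts per nucleus, -1258.7 at 20000 and -421.5 with at least 2 counts per gene. Within a plate the nuclei ranged widely, from 505 to 3211 genes on MB14, 399 to 4543 on MB16, 103 to 5004 on plate1 and 167 to 5260 on plate2. The 2 groups overlapped throughout the lower range, and the upper quartile was 1321.5 and 1334 genes on the FFPE plates against 3072.5 and 3023 on the frozen plates. Without thinning the plate means were 1964 and 2435 against 4834 and 4974 genes, at median counts of 54403 and 41839 against 255329 and 212099 per nucleus.

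Measured by the 100 largest genes, reads of FFPE nuclei were also concentrated in fewer genes. The 100 largest genes of a nucleus took 55.8% and 56.5% of its thinned reads on the FFPE plates and 43.3% and 41.1% on the frozen plates, a difference of 13.97 points (14.27 from linked sets). The 10 largest took 16.25% and 18.3% against 15.21% and 13.5%. The single largest gene took 2.97% and 3.96% against 5.02% and 3.52%, so that these plates overlapped. The annotation lists the share of reads on human genes per nucleus, which averaged 5.49% and 5.06% on the FFPE plates and 1.76% and 1.95% on the frozen plates. Among nuclei under 5% human reads the difference in genes per nucleus was -698.5, against -904.2 over all nuclei.

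**Figure D2:**
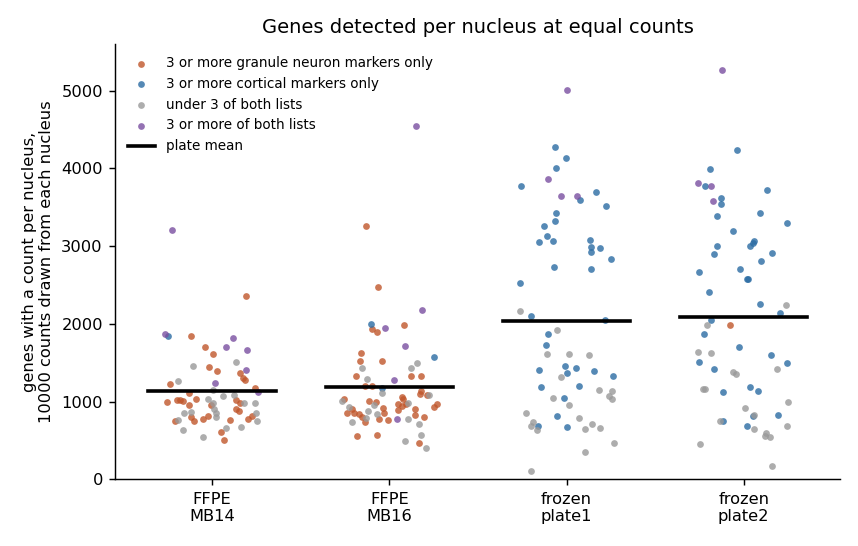
Genes with at least 1 read per nucleus after thinning to 10000 counts (y axis) on the FFPE plates MB14 and MB16 and the frozen plates plate1 and plate2. Each point is 1 nucleus, coloured by how many markers of cerebellar granule neurons and cortical excitatory neurons it held, and black lines are plate means (1133, 1188, 2034 and 2095).

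Across the table the median gene was found in fewer FFPE than frozen nuclei. A gene was tested when at least 5% of the thinned nuclei of either group held a read of it, which 9812 of 23295 genes met. A gene was called by detection when the share of nuclei with a read differed by at least 20 percentage points and the plates of the groups did not overlap. By that rule 47 genes (0.479% of those tested) were higher in FFPE and 1120 (11.4%) were lower. A gene was called by level when the group means of CPM, each nucleus weighted equally, differed by at least 4-fold on the log2(CPM + 1) scale without overlap of the plates. By level 852 genes (8.68%) were higher in FFPE and 1946 (19.8%) were lower. Without the highest nucleus of each plate the level calls were 454 higher and 2564 lower, and the median log2 difference was -0.75. The median difference over the tested genes was -7.26 points in detection and -0.25 in log2 level, and the latter was -0.49 without plate MB16. These calls have no error rate, since the plates of a group share profiles and no label names separate animals or samples within a group. With 1 nucleus per linked set, 42 of the 47 and 886 of the 1120 detection calls were also called, while 480 of the 852 and 1472 of the 1946 level calls were.

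Detection and level often parted. Of the 1120 genes lower in detection, 804 were not lower by level, and 6 genes were called in opposite directions by the 2 rules. Among 2196 genes whose levels lay within 0.5 log2 of each other, the median detection difference was -8.08 points, beside -7.26 over all tested genes. By the detection rule 238 of them were lower and 5 higher, beside 11.4% and 0.479% of all tested genes. Of these 2196 genes, 1641 were lower on both FFPE plates than on both frozen plates and 49 were higher. That count was made for these genes only and is not called particular to them. A tested gene's FFPE level rested on few nuclei: in the median gene the single highest nucleus carried 46.5% of the MB14 mean and 47.4% of the MB16 mean, against 26.6% and 26.5% on the frozen plates. The highest nuclei of the 2 plates were linked to each other for 39.7% of 9633 genes in FFPE and 51.5% of 9807 in frozen nuclei. Detection is for that reason the measure given first below.

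**Figure D3:**
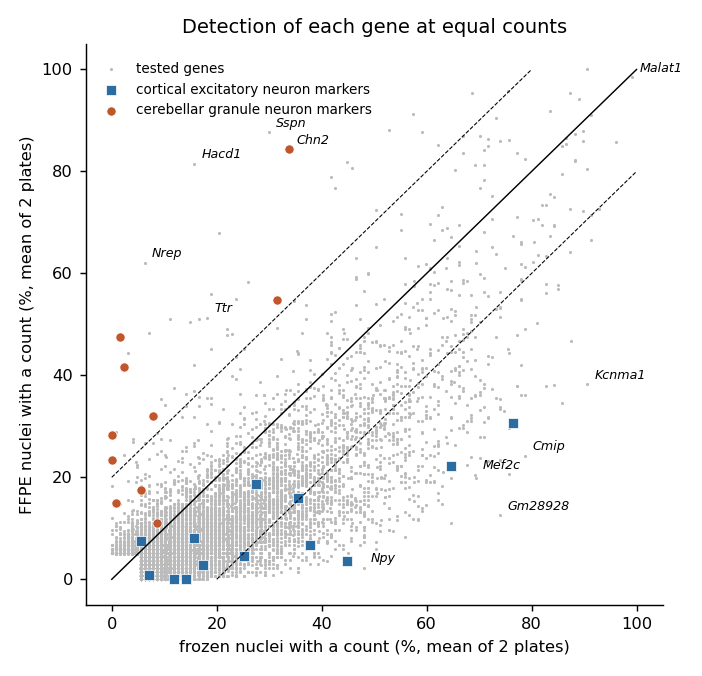
Share of nuclei with a read of each tested gene after thinning to 10000 counts, frozen on the x axis and FFPE on the y axis, both in percent and as the mean of 2 plates. The solid line is equality and the dashed lines mark 20 points, beyond which lie 47 genes above and 1120 below. Most genes sit under the line, while 7 cerebellar granule neuron markers (orange circles) sit above the upper dashed line.

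The genes with the largest negative detection differences are given first. Gm28928, an unnamed locus, was detected in 8 of 64 nuclei on MB14 and 9 of 71 on MB16, against 46 of 64 on plate1 and 48 of 63 on plate2. Both FFPE plates lay far under both frozen plates, with exact binomial 95% intervals of 5.55% to 23.1% and 5.96% to 22.7% against 59.2% to 82.4% and 63.8% to 86.02%. Dlgap2, a postsynaptic scaffold partner, was in 12 and 16 FFPE nuclei against 46 and 50 frozen nuclei, at 75.4 and 118 CPM against 1116 and 1238 CPM. Kcnma1, the pore of the large-conductance calcium-activated potassium channel, was in 21 and 31 FFPE nuclei against 56 and 59 frozen nuclei. Kalrn, an exchange factor for small GTPases in dendritic spines, was in 19 and 28 against 54 and 55. From linked sets, Gm28928 was in 11 of 85 FFPE and 45 of 60 frozen nuclei, Dlgap2 in 20 and 43, Kcnma1 in 32 and 52, and Kalrn in 35 and 51. With the FFPE plates of batch 1 the log2 level difference of Dlgap2 was -0.44 instead of -3.59, which ends the level call, while it was still called by detection. The level calls of Kcnma1, Kalrn, Klhl29, Tmem132d and Kcnq3 ended there too, with log2 differences from -1.66 for Klhl29 to -0.78 for Kcnq3. Klhl29, Tmem132d and Kcnq3 followed the same order, with 6 to 17 FFPE nuclei and 39 to 48 frozen nuclei per plate. The intervals cover counting error only, and they treat the nuclei of a plate as independent.

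Cmip and Mef2c were called lower by detection but not by level. Cmip, an adaptor of signalling pathways, had 784 and 958 CPM in FFPE and 976 and 884 CPM in frozen nuclei, overlapping between the groups. Yet it was detected in 13 and 20 FFPE nuclei against 50 and 50 frozen nuclei, a difference of -54.5 points. Mef2c, a transcription factor of neurons, stood at 1415 CPM on MB16 and 121 CPM on MB14, with 85.6% of the MB16 mean from 1 nucleus. It was detected in 10 and 18 FFPE nuclei against 43 and 45 frozen nuclei.

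The few genes found in more FFPE nuclei differed by as much. Hacd1, an enzyme of very long fatty acid synthesis, was in 53 of 64 and 57 of 71 FFPE nuclei and in 12 of 64 and 8 of 63 frozen nuclei, the largest difference of all tested genes (65.8 points). Its level was 664 and 563 CPM against 30.3 and 46.2 CPM. Sspn, a member of the dystrophin complex, was in 59 and 59 FFPE nuclei against 23 and 15 frozen nuclei. Nrep, a neuronal protein, was in 38 and 46 against 5 and 3. Spata5, an ATPase of ribosome maturation, was in 49 and 42 against 10 and 16, Dnah7b, a dynein heavy chain, in 32 and 33 against 3 and 6, and Olfm3 in 27 and 33 against 0 and 4. With 1 nucleus per linked set, Hacd1 was in 68 of 85 FFPE and 11 of 60 frozen nuclei (intervals 69.9% to 87.9% and 9.52% to 30.4%).

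Some of these genes had other values in other FFPE nuclei of the series. On the 2 FFPE plates of batch 1, MB17 and MB18, Hacd1 was in 0% and 19.1% of thinned nuclei, Sspn in 31.8% and 13.2%, and Spata5 in 27.3% and 30.9%. These plates had 22 and 68 nuclei with 10000 counts or more and fewer genes per nucleus, 703 and 1057 on average. Against the same frozen plates the detection difference was then -6.17 points for Hacd1, -7.35 for Sspn and 8.57 for Spata5. Nrep (36.4% and 42.6%) and Olfm3 (22.7% and 44.1%) were found there in a larger share than on either frozen plate. The detection difference of Dnah7b was 7.80 points with these plates, instead of 41.1, and its log2 level difference 1.12 instead of 2.81, which ends both calls. Asking for 2 counts per gene gave 14.2 points for Dnah7b, also short of a call. In FFPE nuclei without a read of Gabra6, Cbln1, Cbln3 or Fat2 (16 and 16 nuclei) the differences of Nrep and Olfm3 were 15.6 and 6.20 points, instead of 55.8 and 41.2. These nuclei can hold reads of other granule neuron markers.

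Most markers of cerebellar granule neurons were called higher in the FFPE nuclei of MB14 and MB16. Of 12 markers in the list, 11 are in the table and 10 could be tested. Of these, 7 were called higher by detection and 8 by level, beside 0.479% and 8.68% of all tested genes, and none was lower. Their median difference was 23.8 points and 4.02 on the log2(CPM + 1) scale, beside -7.26 points and -0.25 over all tested genes. The list took 0.499% and 0.423% of reads on the FFPE plates and 0.0414% and 0.0494% on the frozen plates. With the FFPE plates of batch 1 in place of MB14 and MB16, 3 markers were called higher by detection (8.79 points for Cbln1 instead of 45.9, 15.4 for Fat2 instead of 39.3), and the difference in nuclei with 3 or more markers was 29.34 points instead of 59.45. From linked sets of MB14 and MB16 it was 58.32.

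Gabra6 encodes the GABA-A receptor subunit that defines granule neurons. It had a read in 12 of 64 and 20 of 71 thinned FFPE nuclei and in 0 of 127 frozen nuclei. All reads of the frozen nuclei before thinning came to 2. Its detection difference of 23.5 points was 18.8 without MB16, 15.5 with 5000 counts per nucleus and 15.4 with at least 2 counts per gene, each short of a call. Cbln3 and Cbln1, secreted cerebellins of granule neuron synapses, were in 19 and 19 and in 31 and 33 FFPE nuclei, against 0 and 0 and 1 and 1 frozen nuclei. The difference of Cbln3, 28.2 points, was 19.2 with 5000 counts per nucleus and also 19.2 with at least 2 counts per gene, short of a call. Fat2, a cadherin of granule neuron axons, was in 29 and 27 FFPE nuclei against 1 and 2 frozen nuclei. Chn2 was in 53 and 61 against 23 and 20, and Cadps2, a regulator of dense-core vesicle release, in 35 and 39 against 21 and 19. Grin2c was in 23 and 20 against 6 and 4. The zinc finger genes Zic1 and Zic2 were called by level only (11 and 9 against 1 and 0 nuclei for Zic1, 6 and 9 against 6 and 5 for Zic2). Pax6 (9 and 15 against 2 and 5 nuclei) was called by neither rule, Zic4 was under the filter and Neurod1 is absent from the table. With 1 nucleus per linked set the same count of 7 markers was higher by detection. It was 4 with 5000 counts per nucleus and 5 with at least 2 counts per gene. From linked sets Gabra6 stood at 25.9% of FFPE nuclei (interval 17.0% to 36.5%) against 0 of 60 frozen nuclei, which allows up to 5% of frozen nuclei with a read at this depth. Such a limit covers counting error only, and it limits nuclei with a read and not nuclei that express the gene.

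The stretches before 3 of these genes are shown because these genes were all called higher by detection and because their RefSeq and GENCODE starts coincide. Each is the 250 bases upstream of the start in GRCm38.p6 from RefSeq, on the minus strand, and capitals mark the E-box letters CANNTG, the core bound by basic helix-loop-helix factors, searched on both strands (the pattern reads the same on each). The windows are chr11:42321073-42321322 for Gabra6, chr6:23839422-23839671 for Cadps2 and chr11:115267244-115267493 for Grin2c.
Gabra6: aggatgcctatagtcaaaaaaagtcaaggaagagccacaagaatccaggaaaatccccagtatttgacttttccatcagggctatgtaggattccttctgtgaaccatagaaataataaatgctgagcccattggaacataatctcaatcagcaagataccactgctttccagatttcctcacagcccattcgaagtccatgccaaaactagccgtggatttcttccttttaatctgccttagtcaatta
Cadps2: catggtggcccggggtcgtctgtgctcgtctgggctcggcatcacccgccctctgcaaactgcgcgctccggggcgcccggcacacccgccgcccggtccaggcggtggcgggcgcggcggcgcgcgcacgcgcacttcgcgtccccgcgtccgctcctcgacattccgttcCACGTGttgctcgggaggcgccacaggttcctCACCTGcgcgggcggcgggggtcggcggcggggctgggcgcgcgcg
Grin2c: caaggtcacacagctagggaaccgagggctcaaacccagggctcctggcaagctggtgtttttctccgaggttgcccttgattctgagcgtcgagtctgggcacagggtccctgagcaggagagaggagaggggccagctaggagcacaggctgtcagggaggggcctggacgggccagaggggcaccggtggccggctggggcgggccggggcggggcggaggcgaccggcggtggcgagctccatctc
Cadps2 holds 2 matches, and the windows of Gabra6 and Grin2c hold 0. The letters occur in 66.2% of all 32851 promoter windows of this length and in 57.3% of the 9810 windows of tested genes. Of the granule neuron markers 10 have an entry, and the first window of 6 of them holds the letters. A match is a description of letters, not of a bound site. In GRCm38, Gabra6 spans positions 42306437 to 42321072 of chromosome 11, Cadps2 positions 23262773 to 23839421 of chromosome 6 and Grin2c positions 115249169 to 115267243 of chromosome 11.

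Cortical excitatory neuron markers held calls of lower values in FFPE, although the labels call the tissue cortex. All 13 markers were tested: 5 were called lower by detection and 6 by level, none was higher by detection and Tle4 was higher by level. The other 8 were not called by detection. Over all tested genes 11.4% were lower by detection and 19.8% by level. The median of the list was -14.5 points and -1.98 log2. Camk2a, the calcium/calmodulin kinase of excitatory synapses, was in 22 and 19 FFPE nuclei against 49 and 48 frozen nuclei. Nrgn, neurogranin, was in 15 and 15 against 42 and 40. Bcl11b, a factor of deep-layer neurons, was in 2 and 3 against 27 and 30 and Cux2, an upper-layer factor, in 4 and 5 against 27 and 21. Tbr1, a deep-layer factor, had no read in any FFPE nucleus (0 of 135, or 0 of 85 from linked sets, which allows up to 3.53% of nuclei with a read at this depth) and was in 11 and 7 frozen nuclei. Fezf2 was likewise in 0 and 0 against 8 and 7. Slc17a7, the vesicular glutamate transporter that cortical and granule neurons share, was in 13 and 12 against 17 and 18 nuclei and was called by neither rule. Taking 1 nucleus per linked set, 4 cortical markers were called lower by detection. This number was 3 with 5000 counts per nucleus, 3 with at least 2 counts per gene and 7 with 20000 counts.

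**Figure D4:**
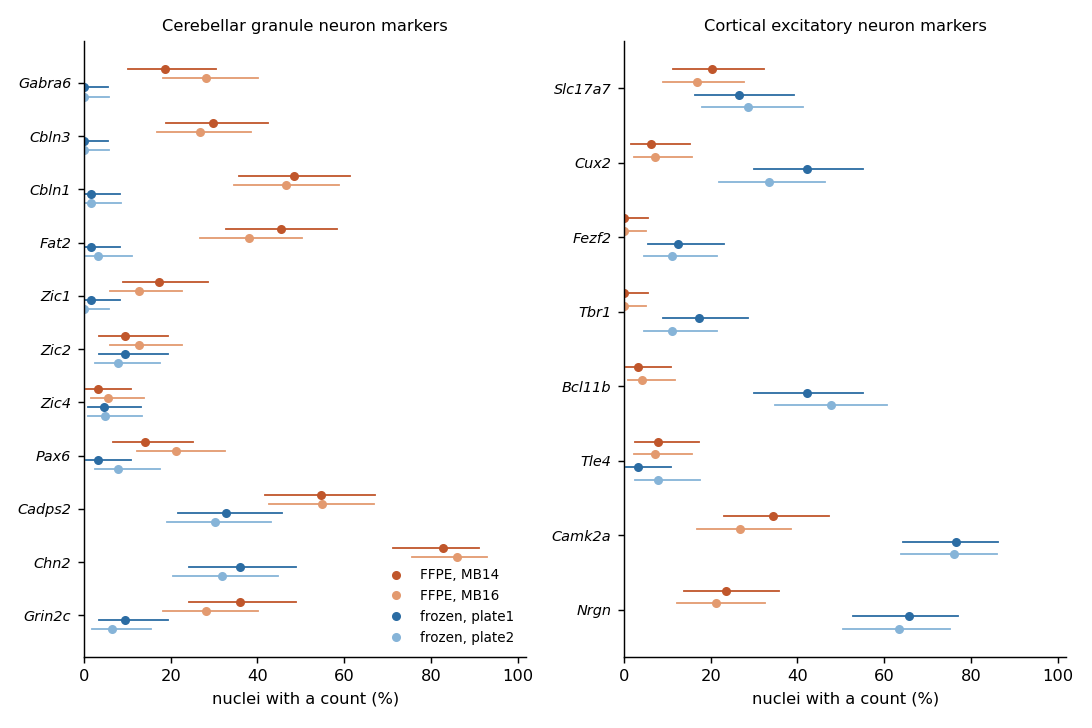
Percent of thinned nuclei with a read (x axis) of the granule neuron markers (left) and the cortical excitatory neuron markers (right) described in the text, on the 4 plates, with exact binomial 95% intervals as bars. Gabra6, Cbln3, Cbln1 and Fat2 are at 18.8% to 48.4% on the FFPE plates and at 0% to 3.17% on the frozen plates, while Camk2a and Nrgn are at 21.1% to 34.4% and at 63.5% to 76.6%.

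Counted per nucleus, the 2 marker sets divided the groups. At least 3 granule neuron markers and fewer than 3 cortical markers were found in 33 of 64 and 43 of 71 FFPE nuclei and in 0 of 64 and 1 of 63 frozen nuclei. At least 3 cortical and fewer than 3 granule neuron markers were found in 1 and 3 FFPE nuclei and in 37 and 38 frozen nuclei. With 1 nucleus per linked set the counts were 49 of 85 against 1 of 60, and 3 of 85 against 37 of 60. These classes are ranges of a count and not cell types: 15 and 24 FFPE nuclei and 15 and 12 frozen nuclei held 2 or 3 granule neuron markers, next to the limit. No doublet caller was run, and 8, 6, 4 and 4 nuclei of the 4 plates held 3 or more of both lists.

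The number of genes per nucleus moved with these classes. Frozen nuclei with cortical markers averaged 2453 and 2433 genes at equal counts, and FFPE nuclei with granule neuron markers 1091 and 1144. Nuclei with fewer than 3 of both lists averaged 939 and 945 genes in FFPE (22 and 19 nuclei) and 1011 and 1056 in frozen plates (23 and 20 nuclei), with ranges of 399 to 1514 and 103 to 2239. Nuclei with 3 or more of both lists averaged 1752 and 2075 genes in FFPE (8 and 6 nuclei) against 4039 and 4105 in frozen plates (4 and 4), and the 1 and 3 FFPE nuclei with cortical markers alone averaged 1842 and 1582. Among nuclei with 3 or more oligodendrocyte markers the means were 1450 and 1606 in 25 and 24 FFPE nuclei against 2897 and 2808 in 30 and 28 frozen nuclei. Few of these held under 3 of both neuronal lists: 6 and 5 FFPE nuclei with 1133 and 886 genes, 3 nuclei of plate1 with 1526 genes and none of plate2. A nucleus with more genes also tends to hold more markers of any list, so these classes are not independent of the genes counted, and what part of the difference lies in the kinds of nuclei was not tested. FFPE nuclei without a read of Gabra6, Cbln1, Cbln3 or Fat2 (16 and 16 nuclei) differed from all frozen nuclei by -1046.2 genes.

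Inhibitory neuron markers differed one by one. Of 13 tested, 3 were lower and 1 was higher by detection, and 5 were lower and 1 higher by level, beside 11.4% lower and 0.479% higher by detection and 19.8% and 8.68% by level over all tested genes. Npy, neuropeptide Y, was in 2 and 1 FFPE nuclei against 34 and 27 frozen nuclei. Lamp5 was in 4 and 1 against 24 and 22, and Gad2, a GABA-synthesising enzyme, in 4 and 8 against 18 and 20. Vip, vasoactive intestinal peptide, was in 0 and 0 against 3 and 5, at 175 and 234 CPM in frozen nuclei. Reln, the secreted protein reelin made by granule neurons as well as by some cortical interneurons, was in 24 and 33 against 10 and 10. Its detection difference of 26.2 points was 13.3 with the FFPE plates of batch 1 and 17.5 in nuclei under 5% human reads, each short of a call. It was 9.25, also short of a call, in the 16 and 16 FFPE nuclei without a read of Gabra6, Cbln1, Cbln3 or Fat2. Pvalb (13 and 9 against 12 and 15) and Erbb4 (26 and 38 against 26 and 31) were called by neither rule.

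Subunits of the ionotropic glutamate receptors, the channels of fast excitation, held called members in both directions. Of 16 tested subunits 7 were lower and 2 higher by detection, and 5 were lower and 1 higher by level, beside 11.4% lower and 0.479% higher by detection and 19.8% and 8.68% by level over all tested genes. Their median was -17.9 points. Among the NMDA receptor subunits, Grin2b was in 12 and 20 FFPE nuclei against 45 and 49 frozen nuclei, at 164 and 145 CPM against 1206 and 1294 CPM. Its log2 level difference of -3.01 was -1.17 with the batch 1 plates and -1.96 in summed counts, both short of a level call. Grin2c, the subunit typical of mature granule neurons, was the reverse, with 1199 and 545 CPM against 104 and 64.1 CPM. The obligatory subunit Grin1 was in 22 and 28 against 39 and 30 nuclei and was not called. Among the AMPA receptor subunits, Gria1 (14 and 24 against 43 and 46), Gria2 (18 and 29 against 38 and 45) and Gria3 (7 and 9 against 37 and 37) were lower, while Gria4 (23 and 43 against 32 and 40) was not called. Among the kainate receptor subunits, Grik2 was in 45 and 53 FFPE nuclei against 31 and 33 frozen nuclei, and Grik4 in 7 and 6 against 24 and 28.

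GABA-A receptor subunits, which form the main inhibitory channels, held called members in both directions. Of 11 tested, 3 were lower and 1 higher by detection, beside 11.4% lower and 0.479% higher of all tested genes. Gabra6 was higher. Among those lower, Gabrb1 was in 12 and 22 FFPE nuclei against 36 and 43 frozen nuclei, and Gabrg3 in 21 and 22 against 42 and 40. In nuclei under 5% human reads the difference of Gabrg3 was -17.7 points instead of -32.7, short of a call. Gabrd, which pairs with Gabra6 in extrasynaptic receptors of granule neurons, was higher by level (599 and 393 against 106 and 106 CPM) but was in 17 and 11 FFPE nuclei against 19 and 17 frozen nuclei.

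**Figure D5:**
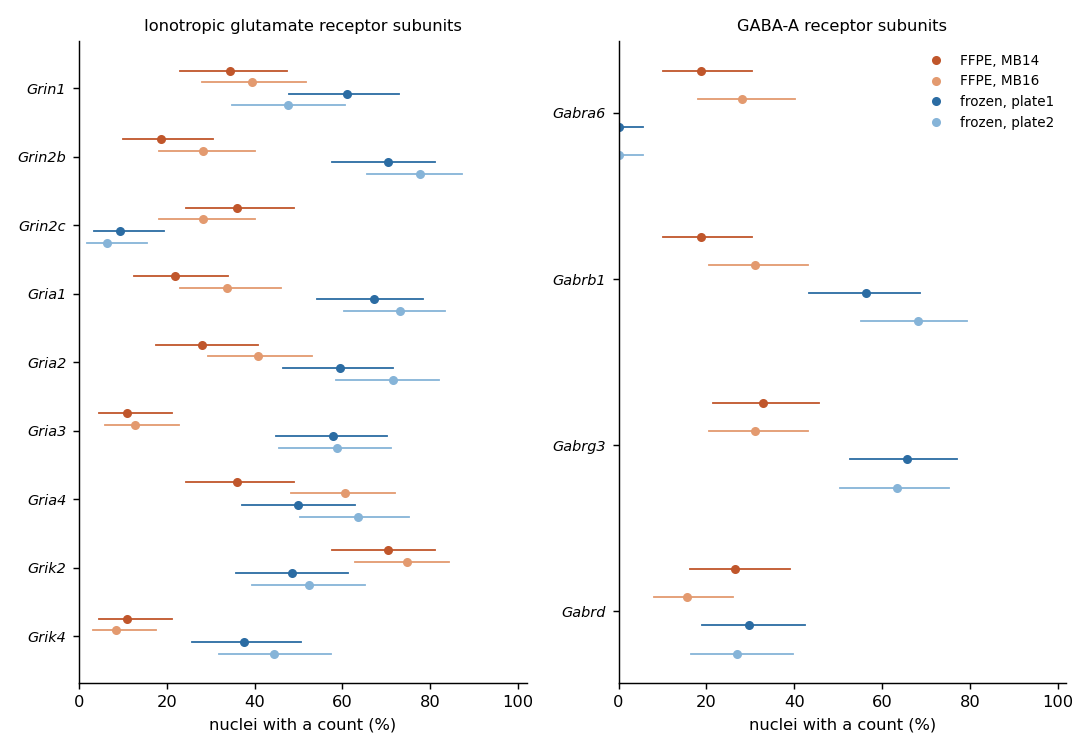
Percent of thinned nuclei with a read (x axis) of the ionotropic glutamate receptor subunits (left) and GABA-A receptor subunits (right) described in the text, on the 4 plates, with exact binomial 95% intervals as bars. Grin2c, Grik2 and Gabra6 lie to the right on the FFPE plates, and Grin2b, Gria1, Gria3, Grik4, Gabrb1 and Gabrg3 lie to the right on the frozen plates.

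Voltage-gated potassium channel genes, which set repolarisation, held called members in both directions. The counts of this and the next 3 lists stand beside the 11.4% of all tested genes lower by detection and the 0.479% higher, and nothing is called particular to a list. Of 20 tested, 9 were lower by detection, among them Kcnq3 (17 and 14 against 43 and 48 nuclei) and Kcnq5 (14 and 24 against 43 and 47). Kcnd2, the pore of the A-type channel, was in 54 and 61 FFPE nuclei against 37 and 42 frozen nuclei at 1506 and 2503 against 334 and 346 CPM. Its auxiliary subunit Kcnip1 was in 50 and 59 against 27 and 31 nuclei, with levels that overlapped (213 and 414 against 249 and 280 CPM). Of 23 synaptic adhesion genes 8 were lower and 1, Tenm1, was higher by detection (34 and 45 against 13 and 20 nuclei), while the very broadly detected Nrxn3 (54 and 65 against 57 and 57) was not called. Of 23 genes of presynaptic release 4 were lower and 1, Syt2, was higher (18 and 19 against 1 and 4 nuclei). Of 16 neuronal RNA-binding regulators 5 were lower and none was higher.

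Among nuclear long noncoding RNAs some were called lower. Malat1, a very abundant nuclear RNA, was in 63 of 64, 70 of 71, 64 of 64 and 62 of 63 nuclei on the 4 plates, at 2242 and 3597 CPM in FFPE against 4097 and 4702 CPM in frozen nuclei. Meg3 was in 54 and 62 against 60 and 62 nuclei, at 2211 and 2252 against 7945 and 8763 CPM. Miat was in 5 and 4 against 26 and 34 nuclei. Of 7 tested RNAs of this list 3 were lower by detection, beside 11.4% of all tested genes.

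Several of the largest frozen levels came from single nuclei. Hspa8, a constitutive chaperone, had 1033 and 799 CPM in FFPE against 7128 and 5605 CPM in frozen nuclei, but 1 nucleus gave 87.7% and 86.2% of the frozen plate means, and the gene was detected in 41 and 47 against 47 and 45 nuclei. Cacna1a, a calcium channel, had 878 and 870 against 7276 and 4722 CPM, with 94.2% and 91.5% from 1 nucleus on each frozen plate, and these 2 nuclei were linked. Without the highest nucleus of each plate its log2 difference was 0.88 rather than -2.78. Immediate early genes had no detection call among 12 tested, beside 11.4% lower and 0.479% higher of all tested genes. By level Nr4a3 was higher and Junb, Homer1 and Bdnf were lower, beside 8.68% and 19.8%. The log2 difference of Homer1, -2.62, was -1.67 with a pseudocount of 10 CPM and -1.56 in summed counts. With the FFPE plates of batch 1 it was 1.84, and its call ended each time.

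Glial and vascular lists held few detection calls, beside the 11.4% of all tested genes lower by detection, and some level calls, beside 19.8% lower and 8.68% higher. Among 8 oligodendrocyte, 7 microglial and 6 endothelial markers none was called by detection, while by level 3 microglial markers (list median log2 1.76) and 1 oligodendrocyte marker were higher and 1 endothelial marker was lower, and of 7 astrocyte markers Slc1a2 was lower by detection (24 and 19 against 43 and 44 nuclei). The microglial list took 0.139% and 0.0424% of reads on the FFPE plates against 0.0376% and 0.0504% on the frozen plates, so that MB16 lay between them. A read of any of its markers was in 22 and 19 FFPE nuclei against 32 and 30 frozen nuclei. The log2 level difference of Csf1r, 1 of the 3, was 2.49, and it was 1.43 without MB14, 1.94 from linked sets, 1.24 in summed counts and -1.41 with the FFPE plates of batch 1, which ends its call each time. Of 78 cytosolic ribosomal protein genes 1 was lower, Rpl14 (11 and 10 against 33 and 26 nuclei), and the list took 2.19% and 1.68% of reads in FFPE against 1.65% and 1.43% in frozen nuclei. Of 70 genes of the nuclear-encoded respiratory chain 13 were lower by detection, beside 11.4% of all tested genes, with a median of -11.6 points. By level 5 were lower and 3 higher, and their median log2 difference was 0.14. The 8 tested mitochondrially encoded genes had none called. The repeat- or rRNA-like list had 2 of 7 higher by detection, beside 0.479% of all tested genes: Gm10801 (59 and 70 against 40 and 47 nuclei) and Lars2 (63 and 66 against 50 and 46). At 20000 counts per nucleus their detection differences were 18.7 and 14.6 points instead of 26.8 and 20.1, which ends both calls. The call of Lars2 also ended with the expected detection over all draws in place of 1 draw (18.99 points). It ended as well with 1 nucleus per linked set (19.1), without MB14 (17.4), without plate2 (17.6), in nuclei under 5% human reads (16.8) and with the FFPE plates of batch 1 (-3.51). Of 6 tested striatal and 3 tested thalamic neuron markers none was called by detection, while 1 and 2 were higher by level, and of 2 tested Purkinje cell markers 1 was lower. The thalamic level call of Tcf7l2 (log2 2.31) ended with a pseudocount of 10 CPM (1.865) and from linked sets (1.859). That of Prkcd (log2 4.24) ended with the FFPE plates of batch 1 (-1.87).

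Markers of other cells had reads in both groups. Ttr, the marker of the choroid plexus, was in 35 of 64 and 34 of 71 FFPE nuclei against 11 and 12 frozen nuclei, while the other choroid and ependymal markers Foxj1 and Kl were at 0 or 1 nuclei on the FFPE plates. On the batch 1 plates Ttr was in 27.3% and 0% of nuclei. The haemoglobin genes Hba-a1, Hbb-bs and Hbb-bt were higher by level (Hba-a1 at 3384 and 1513 against 683 and 433 CPM) and were not called by detection (39 and 37 against 35 and 26 nuclei for Hba-a1). With the FFPE plates of batch 1 the log2 difference was -4.225 for Hba-a1 and -2.65 for Hbb-bt, and for Hba-a1 it was 1.44 without MB14, under the limit for a call. With 1 nucleus from each linked set it was 1.90 for Hba-a1 and 1.95 for Hbb-bt, also under that limit. Their part in the other differences was not tested.

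Calls of lower detection were more frequent among genes that span much DNA, while calls of lower level were less frequent there, and 9530 of the 9812 tested genes matched the GENCODE M21 annotation. In the 1906 genes with the longest spans (109.8 kb or more) 23.0% of genes were called lower by detection, against 7.98% in the 1906 shortest (up to 11.4 kb). By level 13.6% of the longest were called lower against 21.9% of the shortest, and by detection 1.52% were called higher against 0.367%. In the same order of spans the median detection in frozen nuclei was 26.8% and 13.4%. The share called lower was 6.77% in the 1906 genes of lowest GC content and 14.7% in the highest, at median frozen detection of 12.6% and 16.5%. Ordered by the frozen level it was 0% in the lowest of 5 equal bins and 41.5% in the highest, at median frozen detection of 6.3% and 41.7%. A call needs a fall of 20 points, which a gene in fewer frozen nuclei cannot show. This order is therefore at least partly set by the rule. These are descriptions across genes, which are not independent.

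Genes of the Y chromosome were read in more frozen nuclei. At equal counts a read occurred in 3 and 2 FFPE nuclei and in 13 and 13 frozen nuclei, and none of the 3 tested genes was called by detection, while Kdm5d and Uty were lower by level, beside 19.8% of all tested genes. With a pseudocount of 10 CPM their log2 differences were -1.03 and -1.05 instead of -2.40 and -2.25, which ends both calls. The call of Uty also ended without MB14 (-1.68). That of Kdm5d ended in nuclei under 5% human reads (-1.41) and with 1 nucleus per linked set. From linked sets its log2 difference was -2.66, but a read was in 1 of 85 FFPE and 2 of 60 frozen nuclei, under the 5% a tested gene needs. Before thinning, where the median counts were 54403 and 41839 per FFPE nucleus against 255329 and 212099 per frozen nucleus, reads of Kdm5d, Eif2s3y, Uty or Ddx3y occurred in 10 of 69 and 13 of 74 FFPE nuclei, with 59 and 63 reads in all, and in 39 of 69 and 39 of 68 frozen nuclei, with 1336 and 1915 reads. Only 2 and 3 FFPE nuclei held over 10 such reads, against 12 and 17 frozen nuclei. On the FFPE plates of batch 1, MB17 and MB18, such reads occurred in 4 of 28 and 12 of 70 nuclei, with 5 and 24 reads. The bulk SMART-Seq2 wells of the series held 1 such read in 9 FFPE wells and 520 in 3 frozen wells. Counts per well were 422718 to 942966 in FFPE and 270363 to 891133 in frozen wells. Xist and Tsix are absent from the table, the labels give no sex, and sex and fixation cannot be told apart if they differ between the groups.

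The bulk SMART-Seq2 wells of the same series, 9 of FFPE and 3 of frozen nuclei with 270363 to 942966 counts, give levels for the same genes. The FFPE wells come from 3 paraffin removal treatments, 3 wells each, and wells of both kinds held 10, 50 or 100 sorted nuclei, so their ranges cover those differences too. Gabra6 ranged from 43.5 to 1026 CPM (median 277) in the FFPE wells and was at 0 in the 3 frozen wells. Chn2 ranged from 964 to 3155 CPM (median 1986) against 77.7 CPM at the median of the frozen wells and 83.04 CPM at their highest. Gm28928 ranged from 0 to 402 CPM (median 21.3) against 2134, 2645 and 2915 CPM, and Kcnma1 from 121 to 2142 CPM (median 527) against 3862, 4247 and 5391 CPM. For these 4 genes, all named for their differences between the single nuclei, the bulk groups did not overlap. The share of all genes without such overlap is not given, so this is a description only. Hacd1 ranged from 1.95 to 229 CPM (median 40.3) in FFPE wells and lay at 47.1, 55.5 and 61.7 CPM in frozen wells, which overlap. Npy was at or near 0 in both, with highest wells of 26.02 and 7.40 CPM, unlike in the single nuclei.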

How the data were processed

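Single-nucleus SMART-Seq2 libraries of 4 plates were analysed from the authors' deposited table of raw counts per gene and nucleus. The counts are whole reads without molecular identifiers on mouse genes, and the builds mm10 and hg19 are named in the submitters' processing notes. No source used here names the aligner or the counter. The deposited annotation gives plate, group and the percent of counts on human genes. Of the FFPE nuclei, 134 equal those of the labelled batch 2, and the other 9 have 102136 to 4973791 counts. They were kept.

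Counts were scaled to CPM per nucleus and averaged over a plate, and group values are means of 2 plates. Detection used 1 draw of 10000 counts without replacement (seed 7). The pseudocount was 1 CPM. Level calls needed a 4-fold difference and detection calls 20 points, both without overlap of plates, among genes in 5% of nuclei of either group. Intervals are exact binomial (95%) and, like the limit of 3 counts for a share of 0, cover counting error only. The script that makes the calls was checked on simulated data, which gives no error rate for these nuclei. No test was made across nuclei.

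Named genes were, per direction, the 10 largest detection differences, the 5 largest level differences with at least 100 CPM, the 5 largest shares per group, 3 members per list by detection difference, the sex-linked genes and Malat1. Other members are named to describe lists. Members and lists were chosen with earlier results of these data known. The link value of 0.6 and 3 alternatives were chosen after seeing the data. Alternatives covered depth, the read minimum, pseudocount, filter, averaging, scaling, the 9 nuclei, each plate, batch 1, linked nuclei, granule marker nuclei and the human share. Coordinates are from GENCODE M21 on GRCm38, promoter windows from RefSeq on GRCm38.p6. Python 3.11.15, numpy 2.4.6, pandas 2.3.3, scipy 1.17.1 and matplotlib 3.10.9 were used. Some members of the lists are not reported here by name, and the list counts include them.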

Additional observations from a re-analysis of the deposited data

How the results depend on the processing

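Several values moved with the depth. With 5000 counts per nucleus the difference in genes was -602.1, the genes called by detection numbered 620, granule neuron markers called higher 4, cortical markers called lower 3, and the difference in nuclei with 3 or more granule neuron markers was 49.5 points (59.45 in the main values). With 20000 counts the first 2 values were -1258.7 and 1985. Asking for 2 counts per gene gave -421.5, 496 calls, 3 cortical markers and 50.28 points. Level calls numbered 1321 with a pseudocount of 10 CPM and 4440 without the detection filter. Without the 9 larger FFPE nuclei the difference in genes was -983.3. With the FFPE plates of batch 1 it was -1182.6, with 1922 detection calls, 3 granule neuron markers, 20.97 points in the share of the 100 largest genes (13.97 in the main values) and 29.34 points for granule neuron markers. For FFPE nuclei without reads of Gabra6, Cbln1, Cbln3 and Fat2 these were -1046.2 genes, 4720 level calls, 1 granule neuron marker, 17.98 points and 2.282 points, and the median log2 difference of all tested genes moved from -0.25 to -1.09. For nuclei under 5% human counts they were -698.5 genes, 12.11 points and 53.31 points. The falls to 1 granule neuron marker and to 2.282 points follow largely from leaving out nuclei with reads of markers on the same list. The cause of the other moves was not tested.

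Leaving out 1 plate at a time gave -934.7 to -873.7 genes, 2761 to 3433 level calls, 1186 to 1288 detection calls, 6 to 7 granule neuron markers, 4 to 6 cortical markers, 12.85 to 15.08 points for the 100 largest genes and 56.97 to 61.92 points for granule neuron markers. The plates of a group share profiles, so these ranges are no check on other nuclei. With 1 nucleus per linked set, 58 of the 60 named detection calls and 43 of the 55 named level calls were still called.

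Reversed log2 differences were 0.88 for Cacna1a and -4.09 for Cspg4 without the highest nucleus, and -0.30 for Cspg4 in summed counts. With the batch 1 plates they were -1.41 for Csf1r, -3.045 for Cspg4, 0.22 for Dlg2, -0.44 for Hacd1, -4.225 for Hba-a1, -2.65 for Hbb-bt, 0.01027 for Hist1h2ap, 2.31 for Hist1h2bc, -0.68 for Hist2h4, 1.84 for Homer1, 0.15 for Hspa5, -1.87 for Prkcd and -3.595 for Ttr, and reversed detection differences were -6.165 for Hacd1, -3.51 for Lars2, -7.35 for Sspn and -4.48 for Ttr. In FFPE nuclei without a read of Gabra6, Cbln1, Cbln3 or Fat2 the log2 differences were -0.65 for Cbln1, -5.76 for Cspg4 and -0.17 for Fat2. The detection differences were -1.575 for Cbln1 and -2.37 for Fat2, whose reads that choice removes by construction. No paired analysis was possible because the labels give the plates of the 2 groups no shared replicate numbers.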
